A study of Homo sapiens with 6 samples.

Results

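A set of 44 genes stood out in the deposited expression table because 1 of the 3 parental libraries held far more of their reads than the other libraries of that group. A gene belonged to the set if parental replicate 1 had at least 50 counts and at least 8 times the larger of the counts in parental replicates 2 and 3 plus 1. Of the 414 listed genes, 45 passed and 1 was left out by the rule, so the members are 44 of 414. These parental counts chose the members, and every difference among the parental libraries is therefore given as a description. The samples were KLE cells, an established human endometrial carcinoma line, as unedited parental (WT) cells and as a LATS1/2 double knockout made with CRISPR/Cas9, with 3 libraries of each. LATS1 and LATS2 are the kinases of the Hippo pathway that restrain the coactivators YAP and TAZ. All cells were kept in DMEM with fetal bovine serum. The knockout cells were grown out from single cells, so they can carry properties of a clone, and whether the 3 libraries came from 1 clone is not given in the sources used here. The knockout count columns name guide 1 of LATS1 and guide 2 of LATS2, and their numbers 5, 6 and 7 match no replicate label, so they are called LATS1/2-KO libraries 5, 6 and 7. LATS1 and LATS2 themselves were not analysed here. Nothing in the labels says that the replicates were separate cultures, so any p-value measures only the spread between these samples.

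The table is the authors' list of differentially expressed genes, and each gene in it had already been selected on these libraries. That selection required a change of some size between the knockout and the parental libraries. Summed over the listed genes, counts were 3008692 to 4064052 in the parental libraries and 613161 to 1862422 in the LATS1/2-KO libraries. Because a list holds only part of a library, these sums are not its depth. For comparisons between libraries, counts were divided by a library scale and are then called scaled counts. In the edgeR fit without parental replicate 1, given below, 51.4% of all 414 listed genes were called higher in the knockout and 45.7% lower. That fit called genes only past 2-fold. A fold between the knockout and replicates 2 and 3 is therefore given below for its size and direction only. That a member differs there is no finding, because a change was a condition of listing. Parental replicate 1 stood apart from the other parental libraries beyond the members too. Among the other 370 listed genes, 98 were more than 2-fold higher and 26 more than 2-fold lower there than in replicates 2 and 3, while their median log2 difference was 0.00.

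The products of the members have varied functions, and whether the members form 1 programme or several was not tested. Lipoprotein lipase (LPL) releases fatty acids from circulating triglyceride, and SLC2A4 encodes the insulin-responsive glucose transporter of fat and muscle. Glutamine synthetase (GLUL) joins ammonia to glutamate, and monoamine oxidase A (MAOA) degrades serotonin and noradrenaline at the mitochondrial outer membrane. Neprilysin (MME) is a cell surface peptidase that pathologists use as a marker of endometrial stroma, the connective tissue beneath the endometrial epithelium. RASSF4 belongs to the Ras association domain family, several of whose members bind Hippo pathway kinases. In bulk RNA, more cells of a type and more RNA per cell cannot be told apart.

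The promoters of 3 members that turn up again below are shown as the stretch from 250 bases before to 50 bases after the RefSeq start, on GRCh38.p14. GLUL lies at chr1:182391741-182392040 on the minus strand, MAOA at chrX:43656049-43656348 on the plus strand and MME at chr3:155079422-155079721 on the plus strand. All 3 windows lie inside the annotated gene spans given below, and the span of MME begins at 155024124. Each window covers 1 RefSeq start, and other start sites were not analysed. Promoters were sought for 5 members, and those of SLC2A4 and CRYAB were not in the reference. Of the 3 shown, MAOA and MME had no counts in parental replicates 2 and 3, whereas GLUL had 487 and 431 counts there. Capitals mark matches, on either strand, to TATAAA of core promoters, to the word CCAAT that NF-Y binds, to the cAMP response element TGACGTCA, to the E-box word CACGTG, to the word CATTCC that TEAD factors bind and to AGAACA, an arm of the glucocorticoid response element.
GLUL: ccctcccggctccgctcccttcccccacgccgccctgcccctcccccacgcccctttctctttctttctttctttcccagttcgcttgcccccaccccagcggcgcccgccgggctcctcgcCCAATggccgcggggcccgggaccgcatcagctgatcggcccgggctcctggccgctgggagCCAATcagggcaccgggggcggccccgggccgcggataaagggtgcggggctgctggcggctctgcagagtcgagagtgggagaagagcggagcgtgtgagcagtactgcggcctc
MAOA: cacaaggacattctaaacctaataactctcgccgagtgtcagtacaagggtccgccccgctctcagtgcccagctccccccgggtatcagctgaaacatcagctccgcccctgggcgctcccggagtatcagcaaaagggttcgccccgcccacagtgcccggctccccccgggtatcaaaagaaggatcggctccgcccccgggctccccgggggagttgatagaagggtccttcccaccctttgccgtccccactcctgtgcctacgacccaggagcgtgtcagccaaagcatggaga
MME: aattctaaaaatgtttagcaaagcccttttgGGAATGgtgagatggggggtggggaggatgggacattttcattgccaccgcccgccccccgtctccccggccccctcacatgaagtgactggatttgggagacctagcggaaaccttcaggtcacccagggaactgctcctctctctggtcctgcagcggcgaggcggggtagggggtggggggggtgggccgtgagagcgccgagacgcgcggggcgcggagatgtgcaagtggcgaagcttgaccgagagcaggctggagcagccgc

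GLUL held CCAAT at 2 places, MME held CATTCC once, read from the other strand as GGAATG, and MAOA held none of the 6 words. Over the 30 members with a RefSeq promoter, CCAAT occurred in 43.3% against 35.7% of all 27305 promoters. CATTCC occurred in 13.3% of the members against 14.0% of all promoters, and TATAAA in 6.67% against 12.0%. The words AGAACA (3.33% against 14.9%), CACGTG (3.33% against 7.43%) and TGACGTCA (3.33% against 1.98%) were each found in 1 member. A match is a description of the letters in this window and no sign of binding.

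Within the parental group, the excess lay almost entirely in replicate 1. The members took 3.86% of the listed counts in that library (exact 95% binomial interval 3.84% to 3.88%). They took 0.140% in replicate 2 (0.136% to 0.144%) and 0.142% in replicate 3 (0.138% to 0.146%), and these intervals cover counting error only. The rule fixes the distance of replicate 1 from the others, so these shares only describe its size. The median member had 629 scaled counts in replicate 1, 6.45 in replicate 2 and 5.57 in replicate 3. The median log2 difference of replicate 1 from the mean of the other replicates was 6.32 on scaled counts plus 1. Taking a pooled count of 0 in replicates 2 and 3 as the floor of 3 counts, the fold ranged from 7.26 for LIPA to at least 1526 for SLC2A4, with a median of 55.6. Members at the ratio were SLC29A4 (8 times), LIPA (8.38) and NEXN (9.46), and those just outside were SENP3 (7.38), GJC1 (7.35) and TLE1 (7.29).

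**Figure D1:**
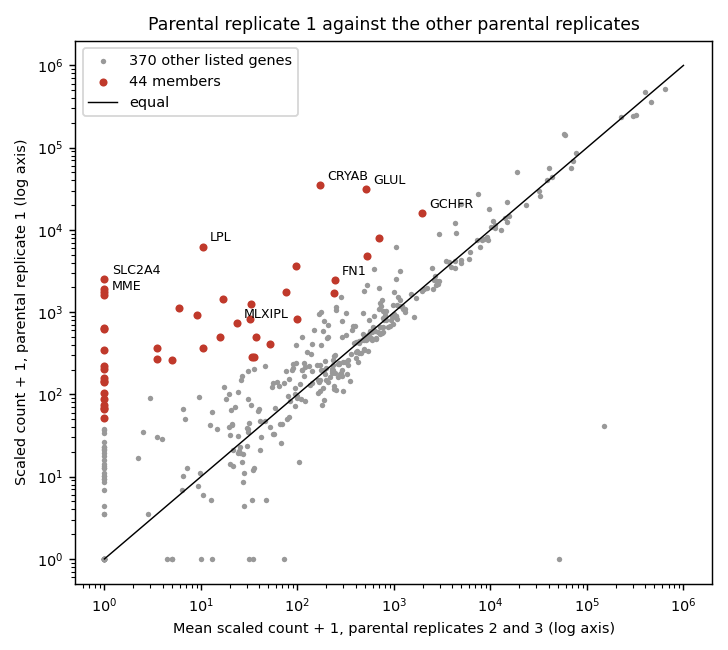
Scaled counts plus 1 of each listed gene in parental replicate 1 (y axis, log scale) against the mean of parental replicates 2 and 3 (x axis, log scale), with a line of equality, the 44 members in red and the 370 other listed genes in grey. The members lie above the line by construction, with 18 of them at the left edge because both other parental libraries held no count.

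The same rule applied with every other library as the one that stands apart found 0 genes for parental replicate 2 and 1, BEST1, for replicate 3. BEST1 had 40.3 scaled counts in replicate 1 and a mean of 149734 in replicates 2 and 3, by the rule mostly in replicate 3. Among the LATS1/2-KO libraries, each set against the other libraries of its group, it found 3 genes for library 5, 5 for library 6 and 2 for library 7. Turned around, to find genes missing from replicate 1 alone, it gave 2 genes, both named as readthrough transcripts (SENP3-EIF4A1 and UBE2F-SCLY). No library other than parental replicate 1 had a set with a comparable number of genes in either direction, though BEST1 alone was a large excess by counts.

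The label that these genes were abundant in parental replicate 1 and nowhere else held only in part. The rule sets a ratio and no upper limit, so some members were well counted in the other parental libraries, as GCHFR with 1613 and 1850 counts and SCRN2 with 703 and 559. Nor did it hold against the knockout. Of the 44 members, 30 had counts in all 3 LATS1/2-KO libraries, 2 in exactly 2 of them, 8 in exactly 1 and 4 in none. Parental replicate 1 was above every LATS1/2-KO library for 39 of the 44 members, against 225 of all 414 listed genes. The rule chose members that are high in replicate 1, so nothing is read from this count either. NEXN, which binds actin filaments, and the unnamed locus AL138752.2 had a higher pooled level in the knockout than in replicate 1, at 132% and 225% of it. The set is therefore named here by its rule. On scaled counts, 26 members (59.1%) were higher in every LATS1/2-KO library than in replicates 2 and 3, against 51.0% of all 414 genes. Lower in every LATS1/2-KO library were 10 members (22.7%), against 45.7% of all genes, and 8 overlapped. With libraries scaled by their listed sums, 5 members rather than 10 were lower in every LATS1/2-KO library, and CRYAB, GCHFR, SCRN2, PPP1R16A and CXXC5 then overlapped with replicates 2 and 3. Since the rule used replicates 2 and 3, members are low there by choice, and nothing is read from these shares.

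**Figure D2:**
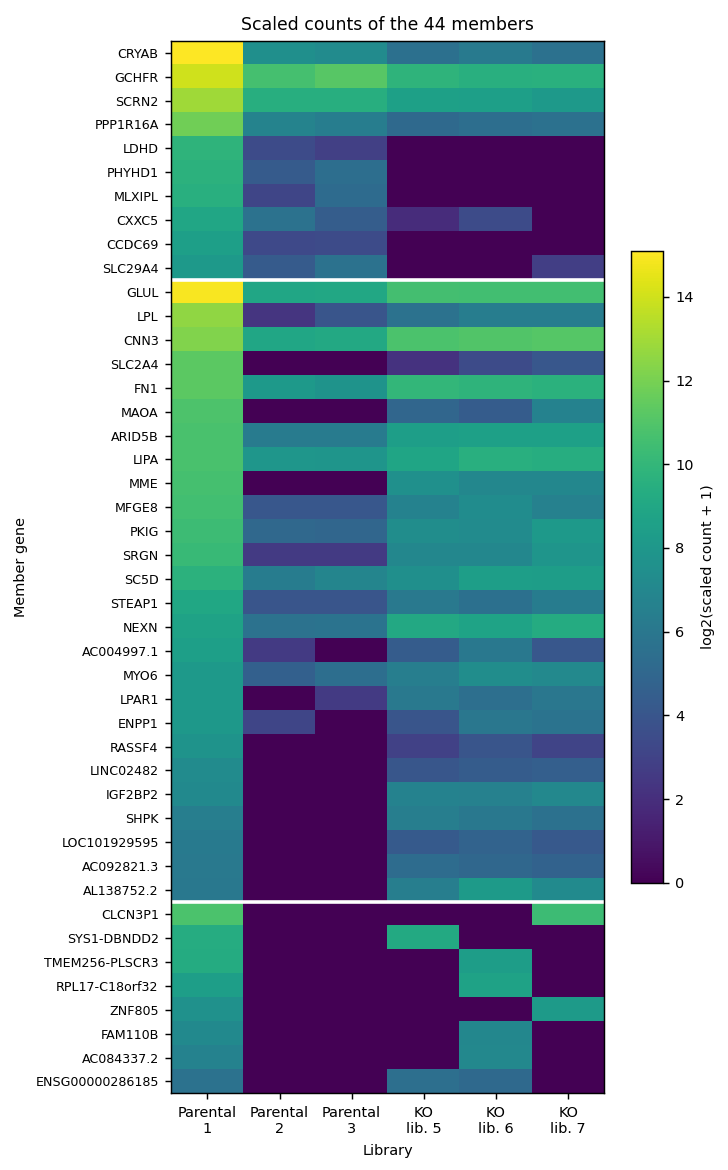
Colour gives log2 of the scaled count plus 1 for each of the 44 members (rows) in the 6 libraries (columns), with white lines between the 10 members below parental replicates 2 and 3 in every LATS1/2-KO library, the 26 above them and the 8 that overlap. In the bottom block most members have counts in parental replicate 1 and in a single LATS1/2-KO library.

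A few members carried most of the reads. CRYAB, GLUL and GCHFR together had 97852 counts in parental replicate 1, which was 62.3% of the member counts there, and without them the members still took 1.45% of the listed counts. CRYAB encodes a small heat shock protein that keeps other proteins soluble, chiefly in lens and muscle. Parental replicates 1, 2 and 3 had 41506, 182 and 127 counts of it, and LATS1/2-KO libraries 5, 6 and 7 had 51, 29 and 33. The parental replicates thus differed 204-fold in scaled counts, and the knockout lay below all of them, 3.25-fold under replicates 2 and 3. Per kilobase of exon, CRYAB (11474 scaled counts) and GCHFR (10464) were the highest members in replicate 1, ahead of GLUL (3459), SCRN2 (2620) and CNN3 (1676).

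Among the genes of nitrogen and cofactor metabolism, GLUL (ENSG00000135821.19_6, chromosome 1, 182381704 to 182392206 on GRCh38) had 37245, 487 and 431 counts in parental replicates 1, 2 and 3. LATS1/2-KO libraries 5, 6 and 7 had 1653, 580 and 976. After scaling, the knockout libraries held 1530, 1442 and 1451, close to each other, 2.94-fold above replicates 2 and 3 and at 4.77% of replicate 1. MAOA (ENSG00000189221.9_2, chromosome X, 43654907 to 43746824) had 2272 counts in replicate 1, none in replicates 2 and 3, and 33, 8 and 70 in the knockout. Its fold in replicate 1 over the other parental libraries was at least 1153, and the pooled knockout level of 51.5 scaled counts, against 1906 in replicate 1, was at least 31.2-fold above replicates 2 and 3. GCHFR, which regulates the first enzyme of tetrahydrobiopterin synthesis, went the other way in the knockout. It had 19101, 1613 and 1850 parental counts against 987, 299 and 518 in the knockout, which after scaling was 2.28-fold below replicates 2 and 3.

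A group of 8 members handles lipids and sugars, with a median log2 difference of 5.88 between replicate 1 and the other parental replicates. LPL (ENSG00000175445.17_7, chromosome 8, 19901717 to 19967259) had 7431, 4 and 12 parental counts against 55, 34 and 56 in the knockout. It was 707-fold higher in replicate 1, and the knockout lay 7.63-fold above replicates 2 and 3 while at 1.08% of replicate 1. SLC2A4 (ENSG00000181856.15_4, chromosome 17, 7281667 to 7288257) had 3008 counts in replicate 1, none in replicates 2 and 3, and 4, 4 and 11 in the knockout. So few knockout counts put it at 0.349% of replicate 1. SHPK, a kinase that feeds sedoheptulose into the pentose phosphate pathway, came close to replicate 1 in the knockout. It had 103 counts in replicate 1, none in replicates 2 and 3, and 93, 26 and 33 in the knockout (81.6% of replicate 1 after scaling), and its position overlaps TRPV1 on the same strand, so its counts are uncertain.

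LIPA, the lysosomal acid lipase that frees cholesterol from its esters, had 2061, 245 and 187 parental counts against 507, 294 and 446 in the knockout, which put the knockout 2.43-fold above replicates 2 and 3. SC5D, a desaturase of late cholesterol synthesis, had 993, 79 and 93 parental counts against 198, 141 and 229 in the knockout, 2.78-fold above. The other 3 members of the group had no count in any LATS1/2-KO library. MLXIPL, the carbohydrate response element binding protein that switches on fat synthesis genes, had 876, 8 and 30 counts in the parental replicates. LDHD, the mitochondrial D-lactate dehydrogenase, had 1088, 10 and 5, and PHYHD1, a relative of the peroxisomal phytanoyl-CoA dioxygenase, had 994, 19 and 35. Against the floor of 3 counts over the knockout libraries, replicate 1 was at least 528-fold higher for MLXIPL, at least 655-fold for LDHD and at least 599-fold for PHYHD1. Replicates 2 and 3 were at least 15.0-fold, 5.94-fold and 21.4-fold above the knockout for the same genes in that order.

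At the cell surface, MME (ENSG00000196549.11_6, chromosome 3, 155024124 to 155183729) had 1903 counts in parental replicate 1 and none in replicates 2 and 3. The LATS1/2-KO libraries had 205, 51 and 84, so the knockout stood at 9.89% of replicate 1 and at least 95.4-fold above replicates 2 and 3. LPAR1, a G protein-coupled receptor for lysophosphatidic acid, had 321, 0 and 4 parental counts against 74, 18 and 42 in the knockout. ENPP1, an ectoenzyme that makes pyrophosphate from extracellular ATP, had 310, 8 and 0 against 16, 25 and 36. STEAP1, a membrane protein of the metalloreductase family, had 594, 15 and 12 against 72, 19 and 54. These 4 genes were above replicates 2 and 3 in every LATS1/2-KO library. SLC29A4, a plasma membrane transporter of serotonin and dopamine, was the exception in the group with 336, 19 and 41 parental counts against 0, 0 and 4 in the knockout.

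All 3 secreted and matrix members lay between replicate 1 and the other parental replicates in the knockout. Fibronectin (FN1), a cell adhesion protein of the matrix, had 2924, 277 and 170 parental counts against 1112, 361 and 530 in the knockout, which was 37.9% of replicate 1. MFGE8, a secreted protein that bridges apoptotic cells to phagocytes, had 1729, 16 and 13 against 110, 65 and 65. SRGN, the proteoglycan core of secretory granules, had 1351, 5 and 4 against 134, 50 and 159. The knockout was thus above replicates 2 and 3 by 3.77-fold for FN1, 6.97-fold for MFGE8 and 32.1-fold for SRGN.

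Of the 4 actin and chaperone members, CRYAB is described above and the other 3 were higher in each LATS1/2-KO library than in replicates 2 and 3. Calponin 3 (CNN3), which binds actin filaments, had 5672, 493 and 445 parental counts against 1975, 809 and 1514 in the knockout, or 41.9% of replicate 1. NEXN had 492, 51 and 42 against 584, 173 and 417, and was the only named gene among the members whose knockout level passed that of replicate 1. Myosin VI (MYO6), a motor that walks toward the minus end of actin filaments, had 338, 24 and 34 against 95, 66 and 91.

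The 10 members in signalling, transcription and RNA binding split, with 4 above replicates 2 and 3 in all LATS1/2-KO libraries, 4 below and 2 overlapping. The 4 above were ARID5B, PKIG, IGF2BP2 and RASSF4. ARID5B, a DNA-binding protein with a part in fat cell formation, had 2073, 77 and 61 parental counts against 384, 151 and 251 in the knockout. PKIG, an inhibitor of protein kinase A, had 1517, 34 and 25 against 179, 62 and 190. IGF2BP2 encodes an RNA-binding protein that stabilises target transcripts. It had 170 counts in replicate 1 and none in replicates 2 and 3, whereas the LATS1/2-KO libraries held 110, 40 and 87, at 77.1% of replicate 1. RASSF4 (ENSG00000107551.21_8, chromosome 10, 44959407 to 44995891) had 260 counts in replicate 1 and none in the other parental replicates. With 7, 6 and 5 counts in the LATS1/2-KO libraries it was at 3.83% of replicate 1.

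The 4 below were SCRN2, PPP1R16A, CXXC5 and CCDC69. SCRN2, of the secernin family, had 9506, 703 and 559 parental counts against 411, 145 and 189 in the knockout, a 2.01-fold lower level than in replicates 2 and 3. PPP1R16A, a targeting subunit of protein phosphatase 1, had 4287, 108 and 66 against 37, 17 and 33. CXXC5, a zinc finger protein that binds unmethylated CpG, had 589, 51 and 17 against 3, 4 and 0. CCDC69 had 431, 9 and 8 parental counts and none in the knockout. The knockout therefore lay under replicates 2 and 3 by 2.37-fold for PPP1R16A, 11.5-fold for CXXC5 and at least 6.73-fold for CCDC69.

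The last group, of 11 readthrough, noncoding or unnamed loci, had no counts in parental replicates 2 and 3, except that AC004997.1 had 5 in replicate 2, so none could lie below both. In the knockout 5 were above these replicates and 6 overlapped. Together with ZNF805 and FAM110B, which were also at 0 there, 5 of them had counts in exactly 1 LATS1/2-KO library. The pseudogene CLCN3P1, whose reads can be shared with its parent gene CLCN3, had 2108 counts in replicate 1 and 871 in LATS1/2-KO library 7. SYS1-DBNDD2 had 760 in replicate 1 and 628 in library 5. Both names were at 0 in 4 of the 6 libraries, and whether this reflects how reads were assigned to a name was not tested.

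The other 5 followed the same pattern with fewer counts. TMEM256-PLSCR3 had 739 counts in replicate 1 and 133 in library 6, and RPL17-C18orf32 had 411 and 163 in the same libraries. The zinc finger gene ZNF805 had 239 counts in replicate 1 and 198 in library 7. FAM110B had 166 counts in replicate 1 and 50 in library 6, and AC084337.2 had 122 and 53 in those libraries. Among all listed genes, 15 had counts in exactly 1 LATS1/2-KO library, 10 of them with at least 50 counts, and 7 of those 10 were the members just named. The eighth member with counts in 1 LATS1/2-KO library was SLC29A4, which had 4. For 8 of the 44 members another coding gene overlaps on the same strand, as SYS1 and DBNDD2 do for SYS1-DBNDD2. The others are TMEM256-PLSCR3, RPL17-C18orf32, AC084337.2, AL138752.2, AC004997.1, SHPK and PHYHD1. Reads could have been split between those names and these counts are uncertain.

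The rest of the group were sparse. AC004997.1 had 432, 5 and 0 parental counts against 22, 26 and 11 in the knockout. LINC02482 had 187 counts in replicate 1 against 17, 8 and 15, and LOC101929595 had 88 against 20, 11 and 12. All 3 were lower in every LATS1/2-KO library than in replicate 1. AC092821.3 had 80 counts in replicate 1 against 42, 13 and 17, and AL138752.2 had 77 against 95, 120 and 98. ENSG00000286185 had 60 counts in replicate 1 and 48, 14 and 0 in the knockout. Replicates 2 and 3 held no count of these loci, AC004997.1 excepted.

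Summed over the members, the LATS1/2-KO libraries lay between parental replicate 1 and the other parental replicates. This did not hold for every member, as 26 were above replicates 2 and 3 in every LATS1/2-KO library, 10 below and 8 overlapped. The members took 0.535%, 0.663% and 0.622% of the listed counts in LATS1/2-KO libraries 5, 6 and 7, and their scaled sum was 10086 ± 849 (SD, n = 3). The same sum was 131639 in parental replicate 1, 4508 in replicate 2 and 5290 in replicate 3. The members' median log2 difference between the knockout and replicates 2 and 3 was 2.76, or 2.87 with genes at 0 set to their floor, beside 1.16 for all listed genes.

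**Figure D3:**
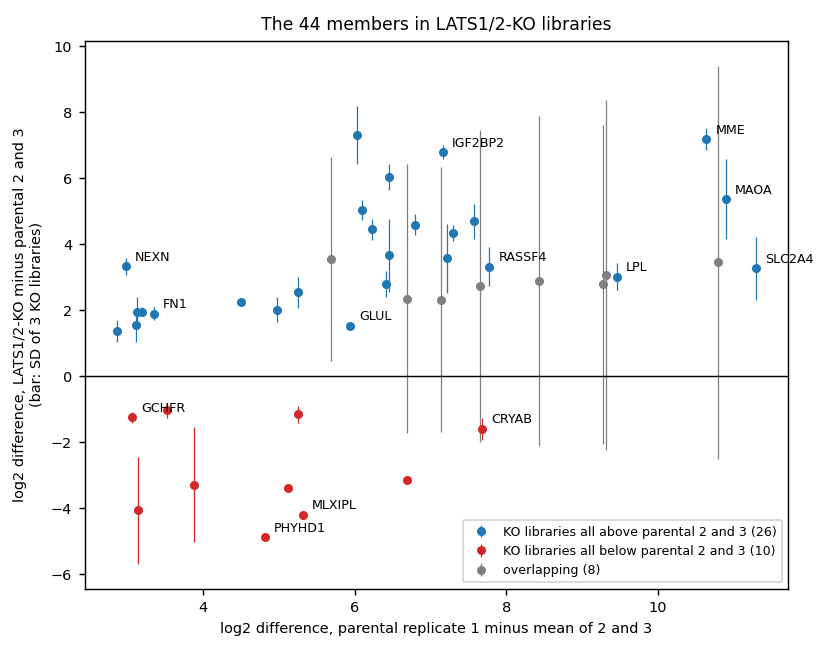
Each point is 1 of the 44 members, with the log2 difference of parental replicate 1 from the mean of replicates 2 and 3 on the x axis and that of the mean LATS1/2-KO library on the y axis, both on scaled counts plus 1, and bars giving the SD of 3 LATS1/2-KO libraries. The long grey bars belong to the 8 members that overlap, most of them with counts in a single LATS1/2-KO library, while 18 of the 26 blue points have an SD under 0.5.

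For the 30 members with counts in all LATS1/2-KO libraries, the knockout level had a median of 13.9% of replicate 1, from 0.151% for CRYAB to 225% for AL138752.2. The 26 members above replicates 2 and 3 had a median log2 difference of 3.33, and the 10 below had one of -3.22. Base composition, which the rule did not use, is given as a description. The longest transcript had a median GC content of 44.0% in the members above, with 18 of 26 under 50%, and of 60.6% in the members below, all 10 of which were between 53.6% and 66.9%. The other listed genes showed the same order, with medians of 45.5% above and 54.3% below. Median exon length was 4046 bases in the members and 3837 in the other listed genes.

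In the edgeR quasi-likelihood fit over all 6 libraries, with Benjamini-Hochberg adjustment over the 414 genes, 0 members were called higher in the knockout and 9 (20.5%) lower. Of all listed genes, 28.7% were called higher and 41.3% lower. At an unadjusted p under 0.05, 0 members were higher, and DESeq2 called 1, NEXN, leaving 33 members without an adjusted p. The 9 called lower were CRYAB, GCHFR, SCRN2, PPP1R16A, PHYHD1, MLXIPL, CXXC5, CCDC69 and SLC29A4. These calls depended on single libraries and on the scale, since 0 were left without LATS1/2-KO library 5 or library 6, 1 (SLC29A4) without library 7 and 1 (PHYHD1) with TMM scaling. Without parental replicate 1, 27 members (61.4%) were called higher, against 51.4% of all listed genes, and 10 (22.7%) lower, against 45.7%. GLUL, MAOA, MME, LPL, SLC2A4 and RASSF4 were uncalled with replicate 1 and called higher without it. Both fits use the libraries that chose the members, so these calls are not evidence about them.

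No single cell type was named by the markers that were listed. Of 13 adipocyte genes, the table held LPL, SLC2A4 and MLXIPL, all members, whose scaled sum was 9490 in parental replicate 1, 11.9 and 52.0 in replicates 2 and 3 and from 54.6 to 99.6 in the LATS1/2-KO libraries. The defining adipocyte genes ADIPOQ, PLIN1, FABP4, LEP and CIDEC were not analysed here. Of 7 genes listed for endometrial stroma the table held MME and MAOA. Their scaled sum was 3502 in replicate 1, 0 in both other parental replicates and 147 to 229 in the LATS1/2-KO libraries. MAOA gave 1906 of that sum in replicate 1, and it also stands in the astrocyte and neuron list, so it is not particular to stroma. PRL and IGFBP1, which mark decidual stroma, were not analysed here. Only members stand behind either sum, so neither adds to the rule.

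Lists that reach beyond the members were mixed, and defining genes of each were not analysed here. These were DES, CKM, MB, TTN and MYH7 for striated muscle and ACTA2, TAGLN, MYH11 and CNN1 for smooth muscle. For fibroblast they were COL1A1, DCN and PDGFRA, and for astrocyte GFAP, AQP4 and SLC1A3. For blood it was PTPRC, for endothelium PECAM1, VWF and CDH5, and for epithelium EPCAM, KRT8 and KRT18. For comparison, 98 of all 370 non-members were over 2-fold higher in replicate 1. Of 8 listed striated muscle genes, 5 were, among them the members CRYAB, SLC2A4 and NEXN, which the rule made high. The non-members were CHRNB1, with 722, 172 and 99 counts, and SPEG, near the floor with 11, 0 and 0. The sarcomeric actin ACTC1 was not, with 1057, 1074 and 847 counts in the parental replicates, nor was the muscle enolase ENO3, with 2293, 2500 and 2077. All 4 listed smooth muscle and contractile genes were over 2-fold higher, 2 of them no members: LIMA1, an actin cross-linker, had 2170, 556 and 336 counts, and the myosin light chain kinase MYLK had 111, 17 and 0. All 4 listed hepatocyte genes were over 2-fold higher as well, of which MLXIPL is a member. Outside the set, pyruvate carboxylase (PC) had 2571, 476 and 469 counts, but the steroid-metabolising AKR1C4 had 47, 25 and 10 and the glucokinase regulator GCKR had 7, 0 and 0, and ALB, APOA1 and TTR were not analysed here.

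In fibroblast and matrix, 4 of 11 were over 2-fold higher and the summed level differed little, at 18820 scaled counts in replicate 1 against 16381 and 15730. In the astrocyte and neuron list, the 3 of 7 that were higher were GLUL, CRYAB and MAOA, all members, which carried the scaled sum of 69524 in replicate 1 against 2346 and 2381. The neurotrophin BDNF had 130, 185 and 124 counts in the parental replicates. Among blood genes 4 of 9 were higher: the members SRGN and RASSF4, and IL2RG and LPXN with few counts (19, 0 and 2, and 50, 25 and 12). ITGB2, an integrin chain of white blood cells, had no count in any parental library. In the endothelial list 2 of 4 were higher, neither of them a member: NRP2 with 282, 94 and 67 counts and ESAM, near the floor, with 25, 0 and 0. Of the 9 listed epithelial genes, 0 were over 2-fold higher and 0 over 2-fold lower. Their scaled sum was 858010 in replicate 1 and 1027290 and 1100360 in the other parental replicates, so the epithelial keratins and secreted proteins that mark these cells were present in all 3. Whether RNA of another cell type had a part in the excess was not tested.

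**Figure D4:**
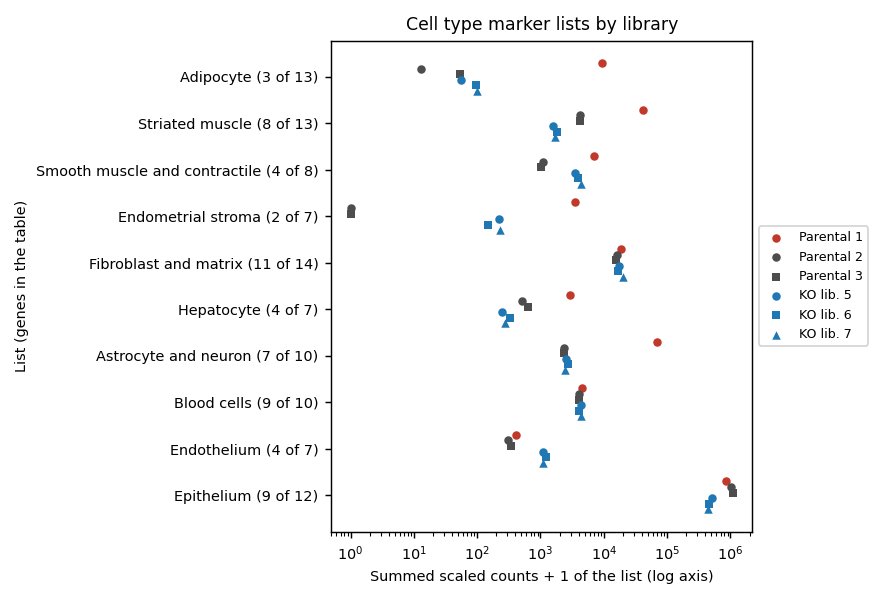
Summed scaled counts plus 1 (x axis, log scale) of each cell type list (y axis, with the number of its genes in the table) in the 6 libraries, in red for parental replicate 1, grey for the other parental replicates and blue for the LATS1/2-KO libraries. Parental replicate 1 lies far to the right for the adipocyte, striated muscle, endometrial stroma and astrocyte lists. It lies less far to the right for the smooth muscle and hepatocyte lists. The sums of all these lists hold member genes. For epithelium it lies to the left of the other parental replicates.

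Genes outside the set, from a hand-made list for energy, lipid and redox metabolism, were partly higher in the same library. The list is loose, as LITAF and CPPED1 are not clearly genes of that metabolism. All 22 genes of the list were in the table and none was a member. In parental replicate 1, 14 were over 2-fold higher than in replicates 2 and 3, as were 98 of all 370 non-members. Of the 14, 9 were over 4-fold higher. These include genes near the floor, whose folds rest on the pseudocount: ALDH5A1 (10, 0 and 0 parental counts), ABCB10 (14, 0 and 0) and GCKR (7, 0 and 0). GDPD3, a lysophospholipase D, was over 2-fold lower. The median log2 difference was 1.45 for the list against 0.00 for all non-members. Biliverdin reductase B (BLVRB), which reduces haem breakdown products, had 24839, 4678 and 4267 parental counts against 2712, 752 and 1256 in the knockout. ACADVL, which starts the oxidation of very long-chain fatty acids, had 3982, 688 and 452 against 248, 82 and 141. The epoxide hydrolase EPHX1 had 261, 49 and 34 against 9, 0 and 0. In the fit with all libraries, 2 genes of the list were called higher in the knockout and 13 lower, where 28.7% and 41.3% of all listed genes were. Without replicate 1 the numbers were 8 and 14, beside 51.4% and 45.7% of all listed genes. The list was put together with earlier results known and supports nothing by itself.

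The members lay on 20 chromosomes, with no more than 4 on any of them, as on chromosomes 9, 10 and 17. On chromosome 17, SLC2A4 (7281667 to 7288257) lay near TMEM256-PLSCR3 (7389734 to 7404097), and SHPK began at 3608262. Whether members cluster by position was not tested. Of the 44, 39 are protein-coding in GENCODE 29, and 1 each is an antisense RNA, a lincRNA, a processed transcript, a pseudogene and a gene not found there. The second set of values in the table cannot show whether replicate 1 stood apart from the other parental replicates. In those log2-like values, parental replicate 1 was the midpoint of replicates 2 and 3 to within 0.0001 for all 44 members, as for all 414 listed genes, and no member ranged over more than 0.397 among the parental replicates. CRYAB, at 41506, 182 and 127 raw counts, had 11.98, 12.01 and 11.95 there. SLC2A4, with 3008 raw counts in replicate 1 and none in replicates 2 and 3, had 9.83 in every parental column. With replicate 1 at the midpoint for every listed gene, these values neither show nor deny the excess.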

How the data were processed

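KLE cells, parental or LATS1/2-KO, gave 3 RNA-seq libraries each, with oligo-dT priming and paired-end reads on a NovaSeq instrument. Per the labels, cutadapt, HISAT2, StringTie, DESeq2 and the build hg19 were used, with versions not given in the sources used here. The authors deposited 1 table of 414 differentially expressed genes, with raw counts per library, not normalized, and a second set of values on a log2 scale, whose header calls them TPM although they are not. The parental log2 values were used. The 3 knockout columns of those values, whose numbers match no sample, were not used. The authors' fold changes and p-values, also in the table, were not used.

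Parental columns were matched by number and the knockout columns by group only. Within a group, library scales came from median-of-ratios, restricted to genes that reached 50 counts in all libraries of that group. Between groups, the scale was the middle (-0.60) of the widest gap (2.02) in the log2 ratio of the knockout to parental replicates 2 and 3 over 199 genes, with at least 10% of genes on either side. A list of changed genes leaves no unchanged majority, so levels between groups rest on this choice. Log2 values have a pseudocount of 1. Pooled levels are summed counts over summed scales. A group at 0 was set to 3 counts over the group. edgeR 4.0.16 in R 4.3.3 was fitted (glmQLFit, glmQLFTest, all 6 libraries, no covariates), calling genes past 2-fold at an adjusted p under 0.05, after being tested on simulated data. DESeq2 1.42.0 was an alternative, as were other scalings, filters, rules and leaving out each library. Python 3.11.15 with pandas 2.3.3, scipy 1.17.1 and matplotlib 3.10.9 made the counts and plots. Identifiers were joined without version to GENCODE 29 on GRCh38 (43 of 44 members found), and every position is on that build.

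The members, gene lists and tests were chosen with earlier results of these data known. Values in every library are given for GLUL, MAOA, MME, LPL, SLC2A4, RASSF4, the 10 members with the most counts in parental replicate 1, those at 0 in the knockout and those in 1 knockout library. The values of the other members were added after they had been seen.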

Additional observations from a re-analysis of the deposited data

How the results depend on the processing

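Of 74 alternative values, 55 stayed within their limits, 19 moved and 0 changed direction. A ratio of 4 in place of 8 gave 69 members, and a ratio of 16 lowered the members' share in parental replicate 1 to 2.83%. Leaving out single libraries, members called higher ranged from 0 to 27 and members called lower from 0 to 10. Members called lower fell to 0 without LATS1/2-KO library 5, to 0 without library 6 and to 1 without library 7, and members called higher rose to 27 without parental replicate 1. All listed genes called higher then ranged from 96 to 213, the most without parental replicate 1, and those called lower from 143 to 189. TMM over the list gave 139 higher and 60 lower genes against 119 and 171, with 1 member lower (PHYHD1). Median-of-ratios factors gave 90 lower genes. DESeq2 gave 1 member higher and 4 lower, a filter of 10 counts in every library 4 lower among the 15 members it left, and DESeq2 without parental replicate 1, added after the data were seen, 31 members and 217 genes higher. Scaling by the listed sum left 5 members below replicates 2 and 3 in place of 10. The median log2 difference of 2.76 became 2.00 with a pseudocount of 5 and ranged from 2.35 to 3.05 without single libraries (2.35 without LATS1/2-KO library 6, 2.41 without parental replicate 3). The cause was not tested. No paired analysis was possible because the knockout columns carry numbers that match no replicate. Only listed genes were seen, and levels near 0 rest on few counts.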
